A study of Homo sapiens with 6 samples.

Results

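Metallothioneins are small cysteine-rich proteins that bind zinc and copper, and the set described here consists of 9 genes, 8 metallothionein genes of the MT1 and MT2 classes (MT1A, MT1E, MT1F, MT1G, MT1H, MT1M, MT1X and MT2A) and MTF1, which encodes the metal-responsive transcription factor of that family. The rule takes the members by gene name, with every probe annotated to them, and uses no measured value. The members were, however, chosen with earlier results of these data known. Of the 9 genes, 8 had an annotated probe, and together they had 10 of the 47322 probes on the array. MT1A had no annotated probe and was not analysed here. Of the 10 probes, 8 were above background on at least 3 of the 6 arrays and were tested, and these represent 7 genes among the 11426 genes tested.

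The cells were MDA-MB-231, an established line of basal, triple-negative breast cancer, grown in DMEM with 10% FBS. All 6 samples were exposed to 6 transduction units of lentivirus, carrying either a scrambled sequence (3 samples, scrambled control) or antagomiR-138, an inhibitor complementary to miR-138 that the labels call antimiR-138 (3 samples), and RNA was taken 72 h later, on day 3. The lentiviral vector was miRZip, in which H1 drives the antagomiR, and it also carries copGFP and puromycin resistance. The comparison asks which transcripts changed when miR-138 was inhibited. Whether the 3 samples of each group were grown and transduced separately is not stated in the sources used here, and p-values cover only the variation among these arrays, possibly technical.

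Metallothionein genes lie side by side in a cluster on chromosome 16. They are classic inducible genes: free zinc, cadmium and copper raise their transcription through MTF1, a zinc-finger factor that binds metal response elements (MREs) in front of them, and glucocorticoids and oxidative stress also induce several of them. The proteins buffer intracellular zinc, bind toxic metals and scavenge oxidants, and in breast carcinoma MT2A is usually the main isoform. MT1 genes are nearly identical in their coding sequence, and the sequences of the probes were not used here, so the response of a probe to transcripts of another member was not tested.

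Promoters of 4 of the 9 members (MT2A, MT1X, MT1H and MTF1) were in the RefSeq promoter table, build GRCh38.p14; MT1A, MT1E, MT1F, MT1G and MT1M were not in it. The 250 bases before the start of the 3 metallothionein genes are shown because they carry the elements through which the family responds to metal. Capitals mark each match to TGCACNC or TGCGCNC, the core of the MRE, on either strand, so that a match on the opposite strand reads as its reverse complement.
MT2A, chr16:56608334-56608583, plus strand: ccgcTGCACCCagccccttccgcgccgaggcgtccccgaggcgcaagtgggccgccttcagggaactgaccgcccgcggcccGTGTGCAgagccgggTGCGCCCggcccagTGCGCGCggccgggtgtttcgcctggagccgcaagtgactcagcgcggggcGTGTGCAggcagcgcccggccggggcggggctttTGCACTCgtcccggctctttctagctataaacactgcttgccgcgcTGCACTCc
MT1X, chr16:56682220-56682469, plus strand: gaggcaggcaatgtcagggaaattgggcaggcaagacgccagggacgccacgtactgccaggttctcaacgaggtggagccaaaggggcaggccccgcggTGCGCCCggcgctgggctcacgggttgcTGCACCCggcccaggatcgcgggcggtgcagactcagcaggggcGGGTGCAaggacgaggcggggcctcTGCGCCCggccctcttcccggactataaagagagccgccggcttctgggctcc
MT1H, chr16:56669564-56669813, plus strand: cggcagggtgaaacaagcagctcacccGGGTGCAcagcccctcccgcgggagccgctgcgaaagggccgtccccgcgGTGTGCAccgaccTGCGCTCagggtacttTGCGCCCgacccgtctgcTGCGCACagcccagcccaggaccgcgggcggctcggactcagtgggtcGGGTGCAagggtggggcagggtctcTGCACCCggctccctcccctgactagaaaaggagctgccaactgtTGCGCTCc

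The MT2A window held 7 matches, 5 on the gene's own strand and 2 on the opposite strand. MT1H had 8 matches (5 and 3) and MT1X had 4 (3 and 1), and no match overlapped another. One match lay at nearly the same place in all 3 windows, from base 54 to 48 before the start in MT2A and from base 53 to 47 in MT1X and MT1H. MT1X and MT1H also shared a match on the opposite strand from base 78 to 72. Among 35114 promoter windows of the same length, 24.8% had at least 1 match, 0.37% at least 4, 0.0313% at least 7 and 0.0171% at least 8. The same window of MTF1, chr1:37859593-37859842 on the minus strand, held 0 matches. A further motif, TGACNNNGC, the core of the antioxidant response element, was found once in MT2A, once in MT1X and in neither MT1H nor MTF1, against 10.9% of all windows with at least 1, and overlapped no MRE match. These matches describe letters, not bound sites.

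MicroRNA-138 itself is shown because it is the RNA that antagomiR-138 pairs with, with the seed (bases 2 to 8) in capitals.
hsa-miR-138-5p: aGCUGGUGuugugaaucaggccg

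This mature miRNA of 23 bases is made from MIR138-1 on chromosome 3 and from MIR138-2 on chromosome 16. The MIR138-2 hairpin lies on the same chromosome as the metallothionein cluster, 176.0 kb from the start of MT1X and 249.9 kb from the start of MT2A in GRCh38.p14. The probes of neither precursor gene rose above background on any array, with detection p-values from 0.395 to 0.845 for MIR138-1 and from 0.395 to 0.9 for MIR138-2. These probes are annotated to the precursor genes, and the arrays give no check of the inhibition of the mature miRNA. The paper checked the knockdown by qRT-PCR in its triple-negative lines.

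Between 19263 and 20430 probes (40.7% to 43.2%) were above background (detection p under 0.05) on each array. The arrays correlated at 0.994 to 0.996 within groups and at 0.968 to 0.97 between groups, and the number of arrays limits the precision. All 6 genes listed as markers of a triple-negative basal line (VIM, CD44, EGFR, AXL, CAV1 and MSN) were above background on every array; 4 of them fell (EGFR by 0.91, AXL by 0.80, CD44 by 0.45 and CAV1 by 0.29), MSN rose by 0.42 and VIM did not pass. Their summed normalized signal on the linear scale was 103582 to 107608 in the control and 87779 to 89422 with antagomiR-138. The differences given are those of the brightest probes. Dimmer probes of EGFR (-0.22) and CD44 (-0.40) did not pass, while others of CD44 (-0.64), AXL (-0.93) and CAV1 (-0.44) did. A further EGFR probe, not tested, was above background on 0 control and 2 antagomiR-138 arrays. ESR1, PGR and FOXA1 were not above background on any array. ERBB2 and GATA3, of the same list of genes absent from such a line, were above background on all 6 and fell by 1.15 and 0.52 on the log2 scale. For ERBB2 this holds for a single probe, and its other probes were not above background on any array. Of the 6 fibroblast markers, 5 were tested, of which 3 rose and 2 fell. COL1A2 rose by 1.88, with -0.08 on its other probe, and LUM by 1.39. PDGFRB fell by 1.70 and DCN by 0.35. LUM was above background on 1 control array and 3 antagomiR-138 arrays, and DCN on 3 control arrays and 1 antagomiR-138 array. A difference may thus have been built into the selection of both. The other probes of LUM and DCN were not above background on any array. The summed signal of the 6 was 561 to 586 in the control and 961 to 1077 with antagomiR-138, with COL1A2 taken from the probe that rose. That probe had a mean of 7.61 in the control and 9.49 with antagomiR-138, and the other COL1A2 probe 8.49 and 8.41. The rise of the sum thus depends on the choice of probe. COL1A1, a defining marker, was above background on 0 control and 3 antagomiR-138 arrays. It counts among the 3 that rose. Its probe entered the test only through the antagomiR-138 arrays, so that a difference was built into its selection. Of the 6 luminal epithelial markers, 5 were tested, of which 1 rose and 3 fell, with a summed signal of 10881 to 11322 against 7742 to 8075. The gene that rose, KRT18, was near background (5.24 against 5.74) and was detected on 2 control and 3 antagomiR-138 arrays. Of the leukocyte markers, PTPRC and CD3E were not above background on any array, while CD14 rose by 1.48 and CD68 fell by 0.64. The other CD68 probes gave -0.07 and 0.04 and did not pass. The 4 markers with a probe summed to 6025 to 6683 in the control and to 5456 to 6049 with antagomiR-138. Over all genes tested, the shares to set beside these marker counts were 27.7% lower and 28.9% higher at an adjusted p under 0.05. The part of these markers in the metallothionein result was not tested.

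All 5 metallothionein genes that were above background on every array fell upon miR-138 inhibition, while MTF1 rose. MT1F fell the furthest, to 20.6% of its control signal, followed by MT1G at 47.7%, MT2A at 57.9%, MT1E at 64.3% and MT1X at 70.1%. Among all 11426 genes, 56.6% were called changed at an adjusted p under 0.05, 27.7% lower and 28.9% higher, and 66.6% had groups that did not overlap, so a call on its own is common in these data. Signals below are log2 values after background correction and normalization between arrays, differences are antagomiR-138 minus control on that scale, and adjusted p-values are from limma over all probes tested. In a bulk sample, fewer cells that express a gene and less RNA per cell cannot be told apart.

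**Figure D1:**
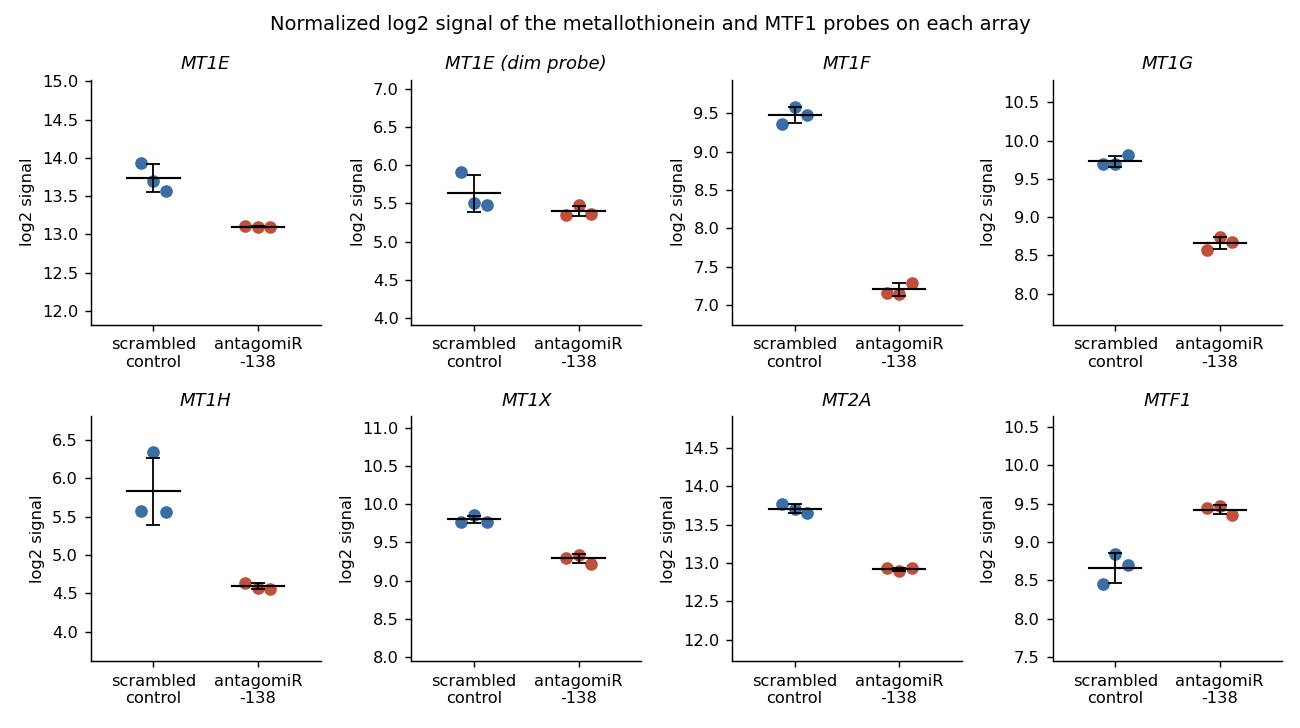
Normalized log2 signal (y axis, each panel spanning the same 3.2 log2 units around its own level) of the 8 tested probes on the 3 scrambled control (blue) and 3 antagomiR-138 (red) arrays; each point is 1 array, long lines are group means and error bars are SD. The groups are apart for MT1F, MT1G, MT1E (bright probe), MT1H, MT1X, MT2A and MTF1, and touch or overlap for the dim MT1E probe.

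MT2A, the isoform that is abundant in most human tissues, had log2 signals of 13.77, 13.70 and 13.65 in the control and of 12.93, 12.89 and 12.93 with antagomiR-138. The deposited intensities behind them were 13442.8, 13006.0 and 13635.8 against 8860.0, 7344.8 and 6747.3. Every control array lay above every antagomiR-138 array on both scales. The difference was -0.79 (95% confidence interval -0.94 to -0.64, SE 0.0619, adjusted p = 0.00011), a signal 1.73-fold lower.

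MT1E, a close paralog of MT2A in the same cluster, was measured by a bright and a dim probe. The bright probe gave 13.93, 13.70 and 13.57 in the control and 13.11, 13.09 and 13.10 with antagomiR-138. The control arrays were spread (SD 0.18) and the antagomiR-138 arrays nearly equal (SD 0.01), with no overlap. The difference was -0.64 (-0.87 to -0.40, SE 0.0984, adjusted p = 0.00184), 1.56-fold lower. The dim probe, above background on 3 control and 2 antagomiR-138 arrays, gave 5.91, 5.51 and 5.48 against 5.35, 5.48 and 5.36, a difference of -0.23 (-0.53 to 0.06) that did not pass (adjusted p = 0.167). The mean of both MT1E probes differed by -0.44. The highest log2 signal on any array was 15.29, so the bright MT1E probe and MT2A lay in the top part of the range.

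MT1F, another inducible isoform, showed the widest gap. Its control signals were 9.36, 9.59 and 9.48, and its antagomiR-138 signals were 7.16, 7.14 and 7.29. The deposited intensities fell from 639.8, 750.9 and 739.1 to 145.5, 118.1 and 118.3. The lowest control array was thus far above the highest antagomiR-138 array. The difference was -2.28 (-2.48 to -2.08, SE 0.0831, adjusted p = 1.08e-05), 4.85-fold lower, and 40 genes (0.35% of all tested, MT1F included) had a difference at least as low. The confidence interval of MT1F did not overlap that of any other member.

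MT1G had control signals of 9.69, 9.70 and 9.81 and antagomiR-138 signals of 8.57, 8.74 and 8.68. The arrays of each group lay close together, with an SD of 0.07 in the control and 0.08 with antagomiR-138. The difference was -1.07 (-1.24 to -0.89, SE 0.0733, adjusted p = 6.9e-05), 2.10-fold lower, and 4.59% of all genes had a difference at least as low.

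MT1X, the last metallothionein gene of the cluster, had control signals of 9.76, 9.86 and 9.77 and antagomiR-138 signals of 9.30, 9.33 and 9.22. The groups did not overlap. The difference was -0.51 (-0.67 to -0.35, SE 0.0658, adjusted p = 0.000829), 1.43-fold lower, and 16.3% of all genes were at least as low. The intervals of MT1X and MT1G did not overlap, whereas those of MT1X and MT1E did; the differences between members were not tested.

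MT1H was near the limit of detection. One of its 2 probes was above background on every control array and on no antagomiR-138 array. Its detection p-values, read by the scanner software against negative control probes, were 0.0195, 0.0013 and 0.0286 in the control and between 0.725 and 0.861 with antagomiR-138. The deposited intensities were 31.5, 65.5 and 32.8 in the control and -10.2, -14.8 and -14.4 with antagomiR-138, and the log2 signals were 5.58, 6.34 and 5.56 against 4.64, 4.57 and 4.56. Control replicate 2 stood above the other controls. Since the antagomiR-138 signal has only an upper bound, the gene was at least 1.34-fold lower, taking for each antagomiR-138 array its dimmest detected probe as the limit (adjusted p = 0.00261 by limma). The probe entered the test only through the control arrays, so that a difference was built into its selection, and without any 1 of the 3 control arrays it no longer entered. The second MT1H probe was not above background on any array (detection p from 0.413 to 0.674).

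MT1M was likewise not above background on any of the 6 arrays, with detection p-values from 0.79 to 0.904. Of 10 other metallothionein genes and pseudogenes listed, 5 had an annotated probe, namely MT1B, MT1IP, MT1L, MT3 (the isoform of brain) and MT4 (the isoform of squamous epithelium). None of these 5 probes was above background on any array, and 0 were tested. The remaining 5, like MT1A, had no annotated probe and were not analysed here.

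MTF1 moved the other way. Its control signals were 8.45, 8.84 and 8.70 and its antagomiR-138 signals 9.44, 9.47 and 9.35, with deposited intensities of 330.8, 445.2 and 424.2 against 787.0, 652.1 and 533.3. The control arrays were more variable (SD 0.20) than the antagomiR-138 arrays (SD 0.06), and the groups did not overlap. The difference was 0.76 (0.50 to 1.02, SE 0.109, adjusted p = 0.00138), a signal 1.69-fold higher, and 6.71% of all genes had a difference at least as high. Transcript levels of MTF1 do not measure its activity, since the protein is activated by zinc.

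**Figure D2:**
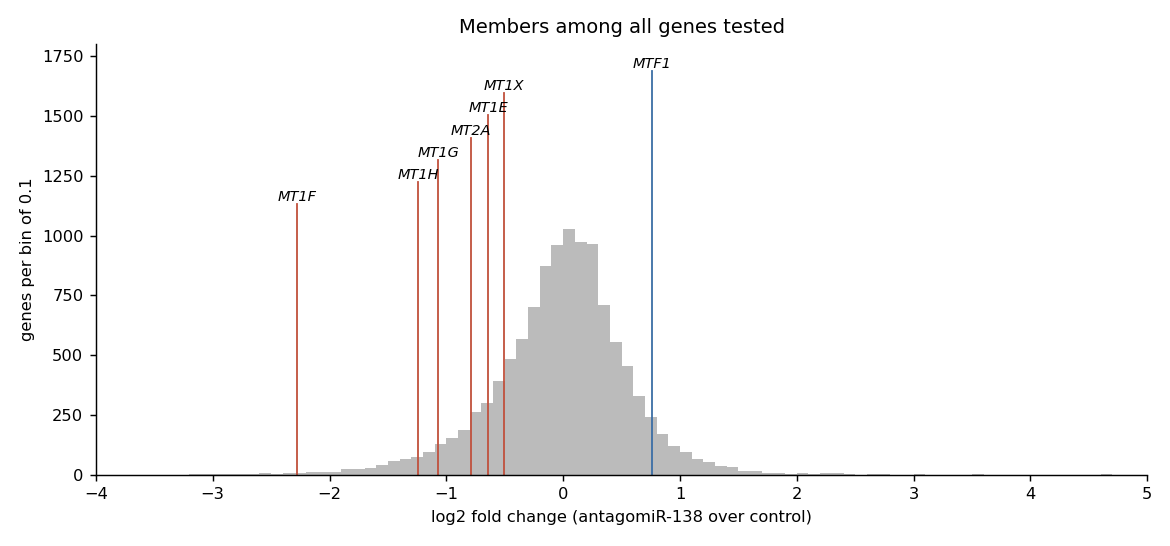
Number of genes (y axis) in bins of 0.1 of the log2 fold change of antagomiR-138 over control (x axis) for all 11426 genes tested, with vertical lines at the 7 tested members (red lower, blue higher; line heights only separate the names). MT1F at -2.28 lies in the far lower tail, MT1X at -0.51 in the flank of the distribution and MTF1 at 0.76 on the upper side; the MT1H line is the fitted value of a probe below background with antagomiR-138.

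As a set, 6 of the 7 members tested were called lower and 1 higher, and in 7 of 7 the groups did not overlap. Over all genes tested, 27.7% were called lower and 28.9% higher, and in 66.6% the groups did not overlap. The median difference was -0.79 over the 7 members and -0.71 over the 6 without MT1H, and the median over all genes was 0.02. A difference as low as that of MT2A was found in 8.65% of all genes and one as low as that of MT1E in 12.2%. The member counts include MT1H, which entered only through the control, and describe the set without supporting a difference.

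The genes on either side of the cluster were examined next, in a choice made after the data were seen. In the order of the annotation, the nearest tested genes before the cluster were NUDT21, OGFOD1 and BBS2, and those after it were NUP93, CPNE2 and PSME3IP1. NUDT21, a subunit of the cleavage factor of pre-mRNA, differed by -0.40 (-0.82 to 0.01, adjusted p = 0.0979), with groups that overlapped. OGFOD1, a ribosomal prolyl hydroxylase, fell by 0.51 (adjusted p = 0.0015), and BBS2, a component of the ciliary BBSome, fell by 0.41 (adjusted p = 0.00372). On the other side NUP93, a nuclear pore protein, fell by 0.20 (adjusted p = 0.0409), CPNE2, a copine with a dim probe, by 0.51 (adjusted p = 0.0153) and PSME3IP1, which binds a proteasome activator, by 0.37 (adjusted p = 0.0126). All 6 flanking values were thus below 0, and 5 of 6 passed, with sizes from 0.20 to 0.51. The 5 include CPNE2, whose mean was 5.66 in the control and 5.15 with antagomiR-138. The dimmest detected probes of the antagomiR-138 arrays had 5.34 to 5.45, so a difference may have been built into the selection of CPNE2. Over all genes tested, 56.6% passed in either direction and 27.7% were called lower. The intervals of MT1F and MT1G lay wholly below those of all 6 flanking genes, whereas that of MT1X overlapped each of the 6; the differences between genes were not tested.

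**Figure D3:**
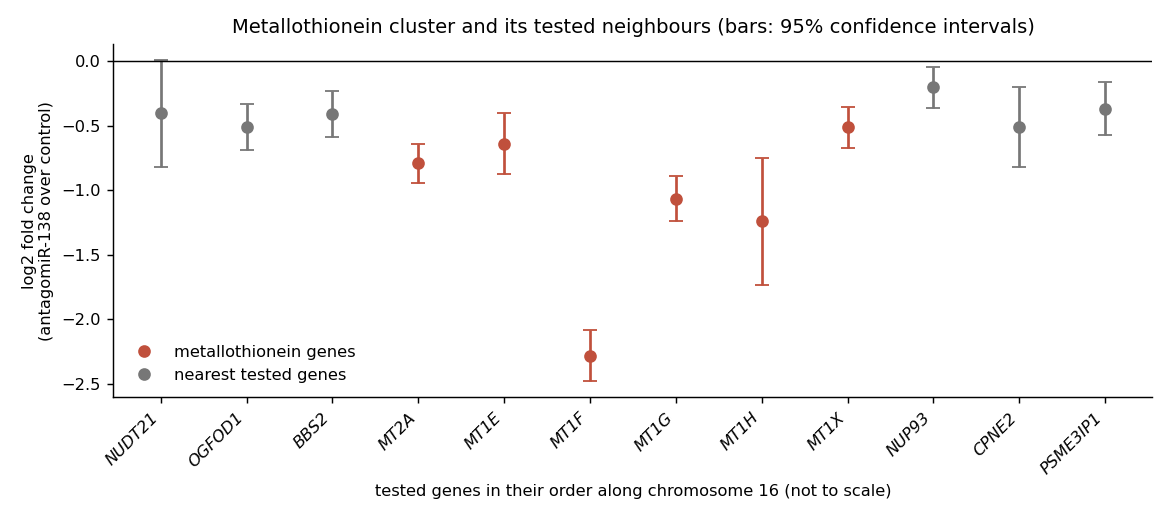
Log2 fold change of antagomiR-138 over control (y axis, with 95% confidence intervals) of the tested metallothionein genes (red) and of the 3 nearest tested genes on each side (grey), in their order along chromosome 16 (x axis, not to scale; n = 3 arrays per group). All points lie below 0, from -0.20 for NUP93 to -2.28 for MT1F. The MT1H value is fitted from signals below background with antagomiR-138, and the CPNE2 mean with antagomiR-138 lay below the dimmest detected signals.

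Zinc mostly leaves the cytosol through SLC30 transporters and enters it through SLC39 transporters. Over all genes tested, the shares to set beside these and the following lists were 27.7% lower and 28.9% higher. Of 11 exporter genes listed, 6 were tested, of which 0 rose, 4 fell and 2 did not pass, with a median of -0.47. Without antagomiR-138 replicate 1, 1 rose. The count that fell was 3 when scrambled control replicate 2 or 3, or replicate 2 of antagomiR-138, was left out. The 4 include SLC30A3 (5.80 against 5.30), above background on 3 control arrays and 1 antagomiR-138 array, so a difference may have been built into its selection. The largest fall was that of SLC30A9, a zinc transporter of mitochondria that is listed here by its family. Its control signals of 11.12, 10.94 and 10.99 compared with 9.30, 9.43 and 9.54 (difference -1.59, -1.80 to -1.38, adjusted p = 3.03e-05). SLC30A1, the exporter of the plasma membrane and, like the metallothioneins, a textbook target of MTF1, was named after its values were seen. It fell by 0.45 (adjusted p = 0.00463) on its brighter probe and by 0.55 (adjusted p = 0.000989) on the other. Of 14 importer genes, 10 were tested, of which 1 rose, 2 fell and 7 did not pass, with a median of 0.09; without scrambled control replicate 1, 3 rose. SLC39A6, a plasma membrane importer, rose by 0.70 (adjusted p = 0.00152), and its second probe by 0.68. SLC39A10, which forms a complex with it, fell by 1.15 (adjusted p = 0.000201).

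Copper and iron genes did not move in 1 direction. Of 15 copper handling genes, 14 were tested, of which 7 rose, 3 fell and 4 did not pass, with a median of 0.33. SLC31A2, a copper transporter of intracellular membranes, rose by 0.73 (adjusted p = 0.000642), and STEAP3, a metalloreductase, fell by 1.03 (adjusted p = 9.83e-05). Of 14 iron handling genes, 11 were tested, of which 3 rose, 5 fell and 3 did not pass, with a median of -0.07. SLC11A2, which carries ferrous iron and other divalent metals, rose from 9.93, 10.03 and 10.11 to 11.41, 11.49 and 11.45 (difference 1.42, 1.26 to 1.59, adjusted p = 2.24e-05). FTL, the ferritin light chain that stores iron, fell by 0.52 (adjusted p = 0.00072).

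**Figure D4:**
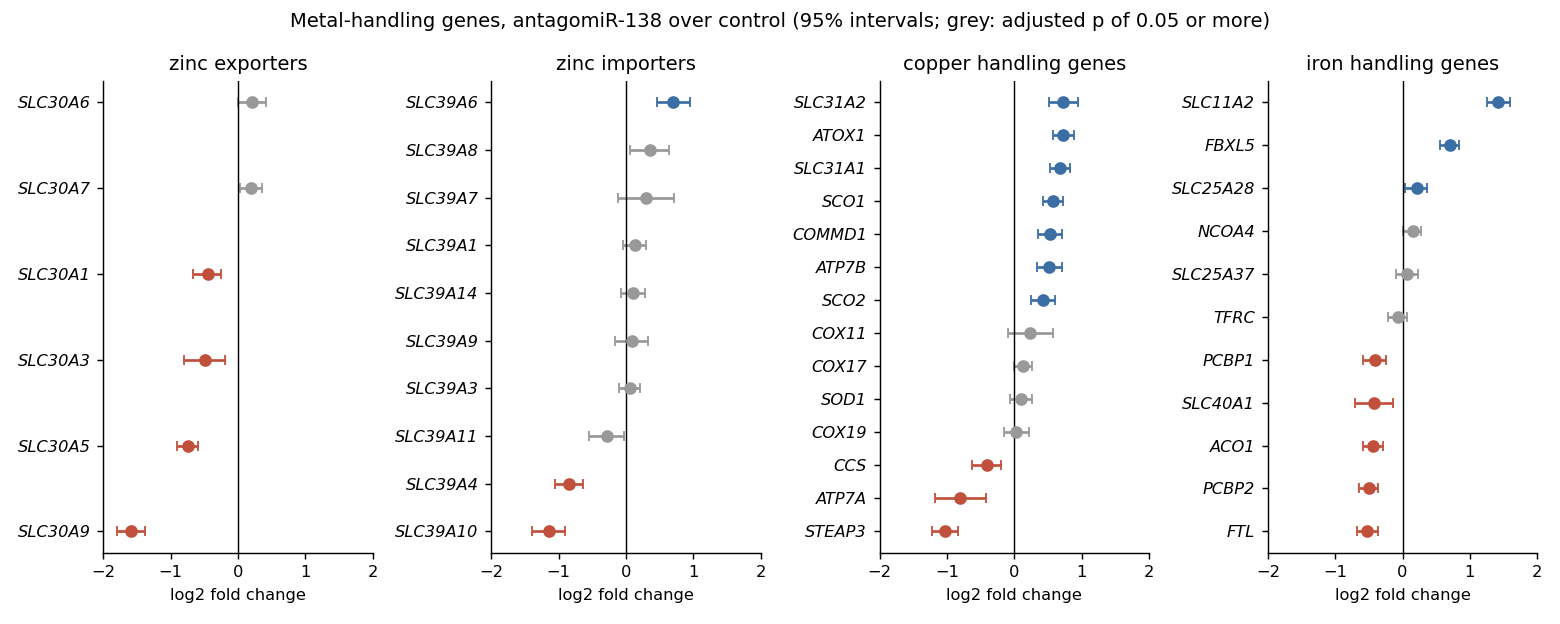
Log2 fold change of antagomiR-138 over control (x axis) with 95% confidence intervals for the tested zinc exporters, zinc importers, copper handling genes and iron handling genes (1 row per gene, brightest probe; blue higher, red lower, grey not passing; n = 3 arrays per group). Exporters range from -1.59 to 0.21, importers from -1.15 to 0.70, copper genes from -1.03 to 0.73 and iron genes from -0.52 to 1.42.

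The other inducers of the family were described by their own gene lists. Among 12 genes of metal and proteotoxic stress, 11 were tested, of which 4 rose, 4 fell and 3 did not pass, with a median of -0.05. The count that rose was 2 when scrambled control replicate 1 or 2, or replicate 1 or 3 of antagomiR-138, was left out. HMOX1, the heme-degrading enzyme that cadmium induces, rose by 0.46 (adjusted p = 0.00429), and TXNRD1, a thioredoxin reductase, fell by 0.89 (adjusted p = 9.58e-05). Among 11 glucocorticoid-responsive genes, 10 were tested, of which 5 rose, 2 fell and 3 did not pass, with a median of 0.29. The count that fell was 1 when scrambled control replicate 2 or 3, or replicate 2 of antagomiR-138, was left out. SGK1, a kinase that glucocorticoids induce, rose by 0.94 (adjusted p = 8.63e-05), and ERRFI1, a feedback inhibitor of the EGF receptor, fell by 0.29 (adjusted p = 0.0119). Of 5 partners and regulators of MTF1, 5 were tested, of which 0 rose, 2 fell and 3 did not pass, with a median of -0.28. SP1, a factor that binds GC-rich promoters, fell by 0.55 (adjusted p = 0.000701), and CREBBP, a histone acetyltransferase and coactivator, fell by 0.42 (adjusted p = 0.00399) and was named after its values were seen.

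The genes most like the metallothioneins over the 6 arrays were found from the mean centred log2 signal of the 6 tested MT1 and MT2 genes, which lay between 0.47 and 0.65 in the control and between -0.55 and -0.54 with antagomiR-138. The 5 closest genes outside the members were C17orf75 (Pearson r = 0.9997, difference -1.28), UQCC2 (0.9996, -1.01), TENT5A (0.9996, -1.26), STMN1 (0.9993, -1.17) and CORO1B (0.9993, -0.42). Without MT1H, whose antagomiR-138 signals were all below background, the profile of the other 5 genes was 0.54, 0.55 and 0.50 in the control and -0.55, -0.52 and -0.52 with antagomiR-138. The 5 genes closest to that profile, in a choice made after the data were seen, were PSRC1, CNGA1, NREP, UBE2C and ARHGAP1, and 0 of the 5 were shared with the first list. The names of the closest genes thus depended on MT1H, and 1035 genes had an r above 0.98 with the first profile and 1158 with the second. The 6 arrays form 2 groups, so that r here mainly reflects a clean step between them.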

How the data were processed

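Biotinylated cRNA of 6 samples, grouped by their labels, was hybridized to Illumina bead arrays, 1 per sample. The authors deposited linear probe intensity after background subtraction, without normalization between arrays (26.1% to 27.5% of an array's values below 0), and a detection p-value beside each intensity. Their second table is normalized between arrays by a method not stated in the sources (column medians 14.46 to 14.47, ranks as in the unnormalized columns) and served as an alternative. The methods name BeadStudio and Partek; GenomeStudio 1.9.0 stands in the submitters' processing notes.

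Gene names came from the platform annotation, in which 30113 of 47322 probes have 1 symbol, 8 several and 17201 none; the methods name the array differently. In limma 3.58.1 (R 4.3.3), neqc applied normexp from the detection p-values, quantile normalization and log2 with an offset of 16. A probe entered when its detection p was below 0.05 on 3 arrays or more (20051 probes). The fit used lmFit and eBayes for the 2 groups of 3 without covariates; tests were two-sided, and p-values were adjusted by Benjamini-Hochberg across every entering probe, with 0.05 as threshold. A gene is called through its entering probe with the highest mean. The fit was tested on simulated data.

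A gene not above background in a whole group has only a bound there: the brighter mean against the mean, per dim array, of the higher of the lowest detected signal and its own. Named are every member with all its probes, in each other list the called genes with the largest rise and fall whose groups do not overlap (or those below background in a group), and the 5 genes most like the members. The members and lists were chosen with earlier results of these data known. The alternatives were other background corrections, normalizations, detection filters, probe rules, tests, thresholds, a replicate block and leaving out each sample. No slide or scan date was known, so none was fitted.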

Additional observations from a re-analysis of the deposited data

How the results depend on the processing

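Under 21 alternatives, 6 of which left out 1 array each, the directions of MT1E, MT1F, MT1G, MT1X, MT2A and MTF1 did not change. The called differences ranged from -0.72 to -0.44 for MT1E, -2.34 to -2.04 for MT1F, -1.12 to -1.01 for MT1G, -0.57 to -0.48 for MT1X, -0.85 to -0.76 for MT2A and 0.65 to 0.85 for MTF1, with adjusted p-values of at most 0.0133. MT1X passed under every alternative except a threshold of at least 1.5-fold. MT1H gave a value under 17 alternatives (-1.73 to -0.66); it did not enter without scrambled control replicate 1, 2 or 3, or when a detection p below 0.01 was asked of all 6 arrays. Its value was -0.66 at an offset of 50 and -1.73 in the authors' normalized table. Between 5 and 6 metallothionein genes were called lower, and 6 to 7 probes, MTF1 included. A threshold of at least 1.5-fold left 2864 of 6468 genes called and 12 of 25 zinc, copper and iron handling genes; without 1 array these counts were 5576 to 5868 and 22 to 26. Small list counts moved, beside the arrays named in the text: 2 importers rose under 7 further alternatives and 1 exporter under 7, and the stress genes that rose numbered 0 to 4. The cause was not tested.

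The replicate numbers are not said to pair the samples, and deviations of same-numbered samples correlated at -0.014, -0.006 and 0.041. With a replicate block 5983 genes were called, 24 of the zinc, copper and iron handling genes and the same number of metallothionein genes, 6.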
